A study of Mus musculus with 6 samples.

Results

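Kinesins are motor proteins that use ATP to walk along microtubules or, in some families, to take microtubules apart. The Kif genes were examined here in RNA from the olfactory epithelium of mutant and wild-type mouse pups. A gene was a member when a probe set, the group of oligonucleotides that reports one transcript on the array, carried exactly 1 gene symbol and that symbol began with Kif and a digit. This gave 99 probe sets for 37 genes of the 18193 genes with such a probe set. Each gene was represented by its brightest probe set, by the mean over all 6 arrays, so the overall level, and not the genotype, chose it. A further Kif probe set carried several symbols and was left out.

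The study hybridised 1 array per pup, 3 from mutant and 3 from wild-type pups, all 1 day old and of a mixed C57Black6/J and 129SvJ background. The labels name no allele for the mutant pups, and the study set out to find target genes of KLF7, a zinc finger transcription factor. Total RNA was amplified into biotin-labelled cDNA, and each value is an intensity, here quantile normalized and given on the log2 scale. The dissected tissue holds sensory neurons, their dividing progenitors, supporting and gland cells, and neighbouring epithelium.

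Klf7 itself had 4 probe sets, each with every mutant array below every wild-type array and log2 differences, mutant minus wild type, of -3.06 to -2.15. Total deposited intensity ran from 11056397 to 14439788 on the mutant arrays, and from 10064207 to 13320971 on the wild-type arrays. Both arrays numbered 3 stood apart: between genotypes, their deposited intensities correlated at 0.883 with each other, and at 0.718 to 0.809 with arrays of other numbers (Spearman's rho across probe sets). The arrays numbered 1 and 2 correlated between genotypes at 0.815 to 0.923, so the lowest of these was close to 0.809. Omp, the classical marker of mature olfactory neurons, was at 7.56, 7.41 and 8.06 on mutant arrays 1, 2 and 3, against 8.81, 7.92 and 7.40 on wild-type arrays 1, 2 and 3. In bulk tissue, fewer cells of a type and less RNA per cell cannot be told apart.

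Kinesins fall into classes by the work they do. Conventional kinesin, a dimer of Kif5 heavy chains with light chains, and the Kif1 family carry vesicles, mitochondria and filament proteins from the cell body into the axon. Kinesin-2, built from Kif3 subunits, drives transport along cilia, the organelles on which olfactory neurons detect odorants, and Kif17 is known for moving channel proteins into cilia. Mitotic kinesins build and divide the spindle and are present in dividing cells. By these roles 9 members were listed as axonal, 8 as ciliary, 12 as mitotic and 8 as other. Kif3c, a kinesin-2 subunit of neurons, was placed with the axonal and not the ciliary members. The counts by class depend on that choice and on the other placements, such as Kif3a and Kif3b with the ciliary members.

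Of the 37 Kif genes, 31 were bright enough to test and 6 were too dim. The dim genes were the ciliary Kif17, the mitotic Kif2b, Kif14, Kif18a and Kif18b, and Kif28. The limit was a mean log2 level of 5.19, with Kif4 just above it at 5.38 and Kif14 below it at 4.76. In the comparison of mutant with wild-type arrays, 0 of the 31 passed the threshold (limma, adjusted p under 0.05). The share of all 12703 genes tested was also 0%. Klf7 was among the genes tested and did not pass either, although all 4 of its probe sets were lower in the mutant without overlap. The absence of a call is thus no sign that a gene did not differ. At an unadjusted p under 0.05 there were 2 of 31, Kif5a and Kif3c, both lower in the mutant arrays. Over all genes that share was 0.598%, of which 0.441% were lower and 0.157% higher in the mutant. Kif5a and Kif3c were both listed as axonal, in classes drawn up with earlier results of these data known, Kif5a among them. These 2 were also the only Kif genes tested whose groups did not overlap, or 6.45%, beside 2.86% of all genes (1.95% lower and 0.905% higher in the mutant). For 6 independent values and no genotype difference, groups of 3 fail to overlap with a probability of 0.1, above both 6.45% and 2.86%. Whether the Kif share differed from that of all genes was not tested.

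**Figure D1:**
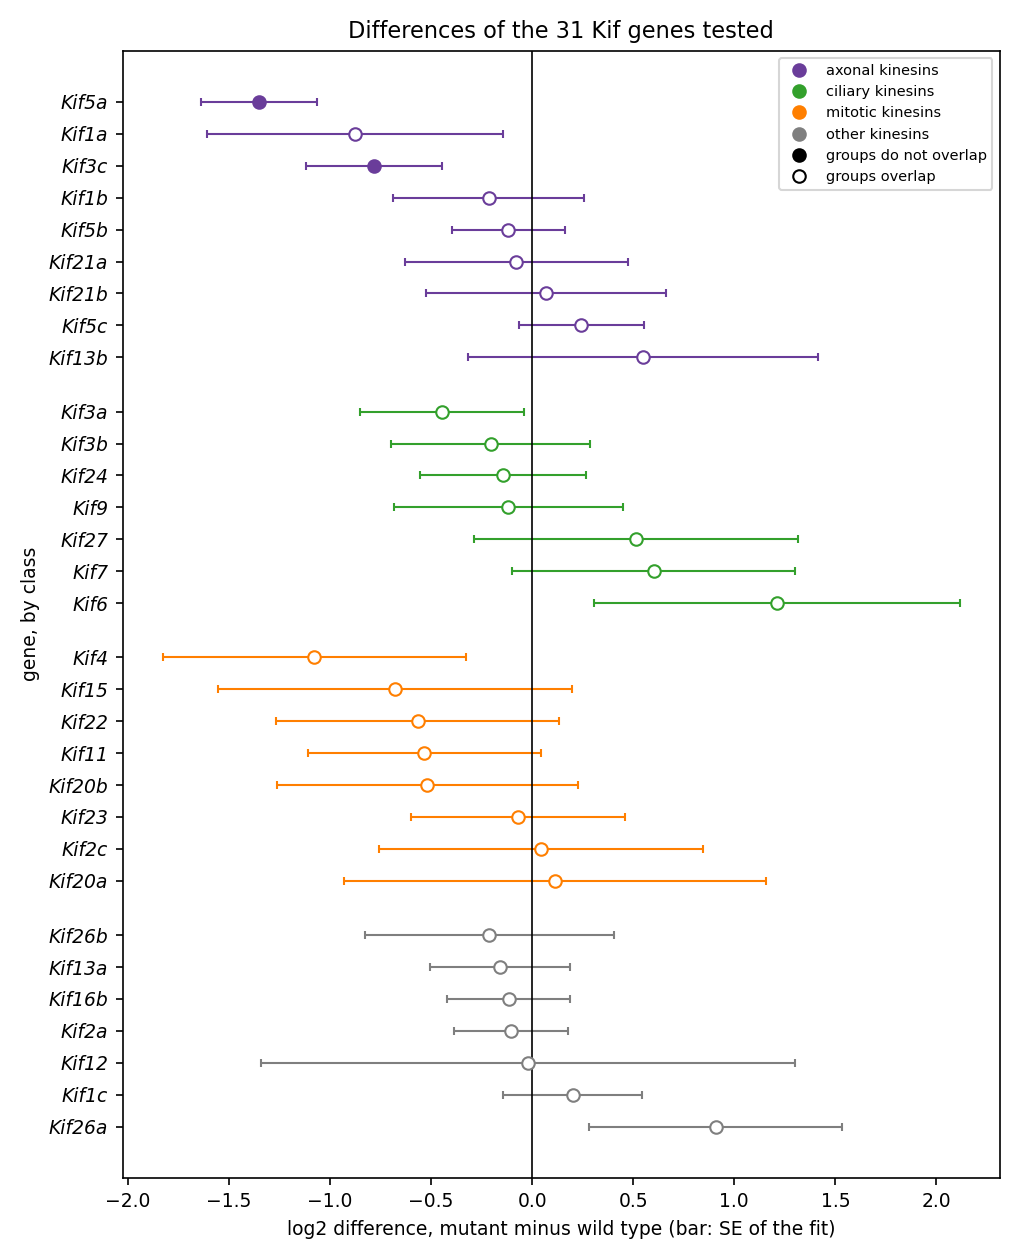
Log2 difference, mutant minus wild type, of the 31 Kif genes tested, grouped by class, with the SE of the limma fit as bars. Filled points mark genes whose groups did not overlap, which were Kif5a at -1.35 and Kif3c at -0.78. The differences of the other 29 genes, all with overlapping groups, run from -1.08 for Kif4 to 1.21 for Kif6.

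Kif5a, the neuron-restricted heavy chain of conventional kinesin, was the Kif gene with the largest difference. It was at 9.22, 8.63 and 9.15 on mutant arrays 1, 2 and 3, against 10.30, 10.59 and 10.15 on wild-type arrays 1, 2 and 3. Every mutant array lay below every wild-type array, and mutant array 2 was the lowest. The means were 9.0 ± 0.32 in mutant and 10.35 ± 0.22 in wild type (SD, n = 3 each). The difference was -1.35 (SE 0.287), a level 2.55-fold lower in the mutant, with an unadjusted p of 0.000638 and an adjusted p of 1 by limma. The exact two-sided permutation p was 0.1, the smallest that 3 arrays against 3 can give. By unadjusted p, Kif5a ranked at place 1 of the 12703 genes tested, yet it did not pass the threshold. It ranked at place 8 with arrays scaled to 1 median (unadjusted p = 0.0162 by limma), 6 with the deposited values as they stand and 10 without wild-type array 2. It was lower in each pair of arrays with the same number, by differences of -1.08, -1.97 and -1.01 for numbers 1, 2 and 3. Without both arrays numbered 3 the difference was -1.52, and -0.94 for Kif3c.

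The Kif5a result rested on 1 probe set. Probe set 1434670_at, described above, had a mean level of 9.67. The next, 1450249_s_at, had a mean level of 5.75 and differed by -0.25 (SE 0.639), with overlapping groups. The third, 1427635_at, was at the lower limit set in processing on 5 of the 6 arrays. With the mean of all probe sets in place of the brightest, the Kif5a difference was -0.46 with an unadjusted p of 0.255 by limma (place 919), and the groups overlapped.

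The other conventional kinesin heavy chains had groups that overlapped. Kif5c, a heavy chain enriched in neurons, was at 9.70, 9.60 and 10.02 on mutant arrays 1, 2 and 3, against 9.76, 9.83 and 9.0 on wild-type arrays 1, 2 and 3. Wild-type array 3 was the lowest of all. Its difference was 0.24 (SE 0.309), and -0.14 without both arrays numbered 3. Kif5b, the heavy chain found in most cell types, was at 10.69, 11.44 and 11.50 on mutant arrays, against 11.27, 10.91 and 11.79 on wild-type arrays. These groups overlapped too, with a difference of -0.12 (SE 0.278). Other probe sets of Kif5c above the dim limit differed by -0.06 and -0.08. Those of Kif5b differed by 0.02, 0.26, -0.08 and -1.0, the last with an SE of 0.982. Whether Kif5a differed more than its paralogs was not tested.

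**Figure D2:**
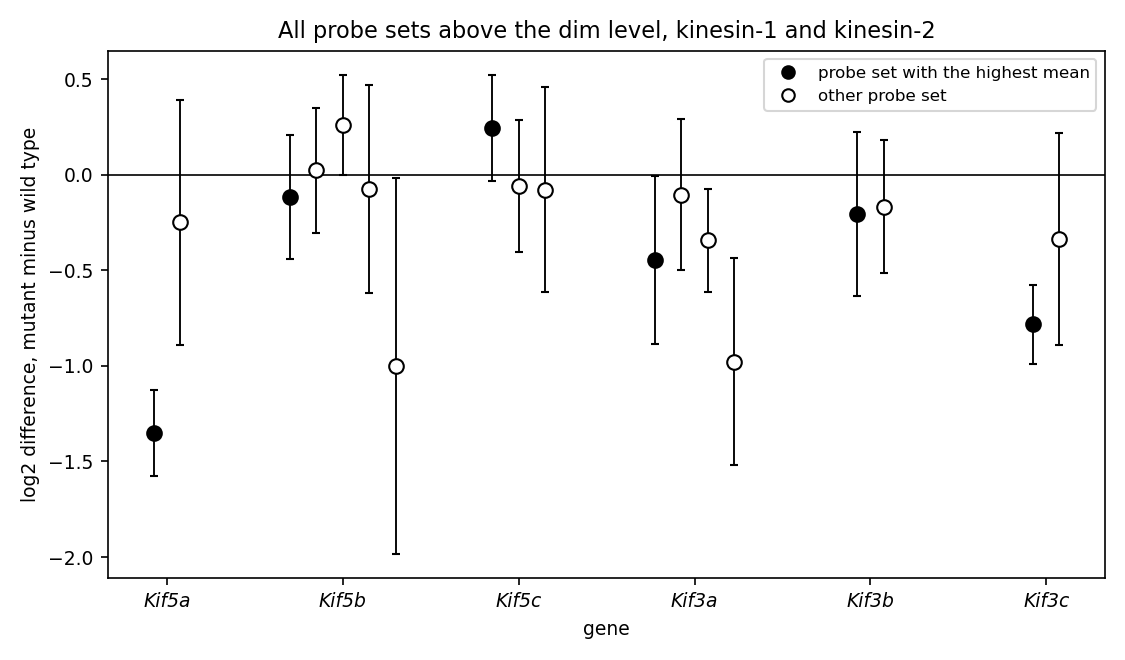
Log2 difference, mutant minus wild type, for each probe set above the dim limit of the conventional kinesin genes Kif5a, Kif5b and Kif5c and of the Kif3 genes, with SE as bars, from the fit over all probe sets. Filled points are the probe sets with the highest mean; the filled Kif5a point lies at -1.35 and the open one at -0.25.

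Kif3c, a kinesin-2 subunit of neurons, was the second axonal member whose groups did not overlap. It was at 8.46, 7.99 and 8.46 on mutant arrays 1, 2 and 3, against 9.07, 9.23 and 8.96 on wild-type arrays 1, 2 and 3. As for Kif5a, mutant array 2 was the lowest and wild-type array 2 the highest. The means were 8.31 ± 0.27 in mutant and 9.09 ± 0.13 in wild type (SD, n = 3 each). The difference was -0.78 (SE 0.338), or 1.72-fold lower, with an unadjusted p of 0.041 and an adjusted p of 1 by limma. Its exact permutation p was also 0.1. The unadjusted p was over 0.05 by limma when mutant array 1, 2 or 3 or wild-type array 1 or 2 was left out, at 0.0643, 0.112, 0.0558, 0.0901 and 0.104. It was 0.172 with arrays scaled to 1 median and 0.161 with the mean of both probe sets, and in both the groups overlapped. Its other probe set, 1448946_at, differed by -0.34 (SE 0.553) with overlapping groups.

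Kif1a, the motor that carries synaptic vesicle precursors down the axon, was at 5.95, 4.37 and 5.28 on mutant arrays 1, 2 and 3. Its wild-type arrays 1, 2 and 3 were at 6.62, 5.63 and 5.97. The groups overlapped, because mutant array 1 lay above wild-type array 2. Each mutant array was nevertheless below the wild-type array of the same number, by -0.68, -1.26 and -0.68. The difference was -0.87 (SE 0.732), with an unadjusted p of 0.257 by limma.

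Kif1b, which carries mitochondria and synaptic vesicle precursors, was at 9.73, 10.40 and 9.10 on mutant arrays, against 11.06, 9.26 and 9.55 on wild-type arrays. The difference was -0.22 (SE 0.472), and its sign changed without wild-type array 1 (0.33) or mutant array 3 (0.11). Its 6 probe sets above the dim limit differed by -0.51 to 0.67. Kif21a, a motor that restrains microtubule growth, was at 8.92, 9.47 and 10.49 on mutant arrays, against 9.49, 8.67 and 10.95 on wild-type arrays. It was highest on the arrays numbered 3 of both genotypes, and the genotypes differed by -0.08 (SE 0.55). Kif21b and Kif13b, a motor linked to axon formation, differed by 0.07 (SE 0.592) and 0.55 (SE 0.866). For Kif13b, wild-type array 3 at 4.44 lay far below the other arrays, which spanned 6.83 to 8.32.

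**Figure D3:**
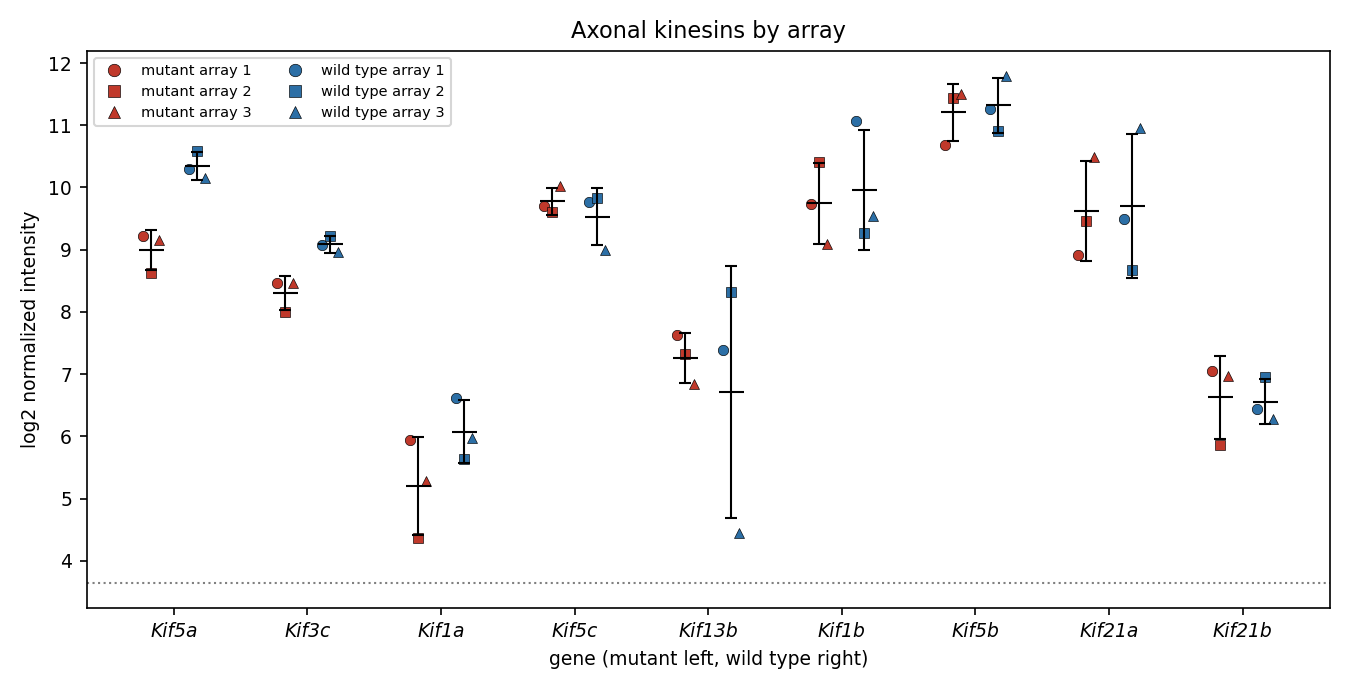
Log2 normalized intensity of the 9 axonal kinesins on each array, mutant left and wild type right, with mean and SD as bars. The dotted line is the lower limit set in processing. Kif5a and Kif3c show no overlap between groups, while Kif5b and Kif5c do overlap.

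Counted together, 6 of the 9 axonal kinesins were lower in the mutant by their means, beside 52.6% of all genes. Their median difference was -0.12, beside -0.02 over all genes tested. The median was -0.57 without wild-type array 2 and -0.42 without wild-type array 3. Kif5a, Kif3c and Kif1a, or 3 of 9, were lower in all 3 pairs of arrays with the same number, beside 9.46% of all genes.

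Among markers of mature olfactory neurons other than kinesins, 9 of 11 tested had lower means in the mutant, 5 of them without overlap between groups, beside 1.95% of all genes lower without overlap, with a median difference of -0.86. Their summed intensity ran from 4535 to 6274 on mutant arrays and from 7753 to 9580 on wild-type arrays, and none was at the lower limit on all arrays. Of 10 markers of immature neurons, 8 were lower, 4 of them without overlap, with a median difference of -0.28, and their sum ran from 18062 to 19200 in mutant and from 19503 to 23371 in wild type. The part of these shifts in the Kif5a and Kif3c differences was not tested.

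Markers of squamous and basal epithelium set the pair numbered 2 apart, in which Kif5a and Kif3c also had their most negative differences. The 9 squamous markers tested had median differences of 1.69, -5.43 and 0.98 in the pairs numbered 1, 2 and 3, with the lowest median level, 3.71, on mutant array 2 and the highest, 9.37, on wild-type array 2. Their summed intensity ran from 327 to 2558 on mutant arrays and from 530 to 5804 on wild-type arrays. The 8 horizontal basal cell markers had pair medians of 1.31, -1.36 and 1.17, and their sum ran from 6778 to 9627 on mutant arrays and from 6128 to 8978 on wild-type arrays. None of either list was at the lower limit on all arrays. In the pairs numbered 1 and 3, where both lists had positive medians, Kif5a and Kif3c were lower in the mutant. The Kif5a difference was -1.18 without mutant array 2 and -1.24 without wild-type array 2. The part of squamous and basal epithelium in the Kif5a and Kif3c differences was not tested.

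Promoter sequences are shown for 3 axonal kinesins: Kif3c, whose groups did not overlap, Kif1a, lower within every pair, and Kif5c, which was not lower. They come from RefSeq on build GRCm38.p6, in which 31 of the 37 Kif genes had a window from 250 bases before to 50 after the transcription start; Kif5a had no entry. KLF proteins are known to bind CACCC and GC-rich boxes, so the letters CACCC and GGGCGG were searched on both strands and are in capitals. The windows are chr12:3364882-3365181 (+ strand) for Kif3c, chr1:93101825-93102124 (- strand) for Kif1a and chr2:49619036-49619335 (+ strand) for Kif5c.
Kif3c: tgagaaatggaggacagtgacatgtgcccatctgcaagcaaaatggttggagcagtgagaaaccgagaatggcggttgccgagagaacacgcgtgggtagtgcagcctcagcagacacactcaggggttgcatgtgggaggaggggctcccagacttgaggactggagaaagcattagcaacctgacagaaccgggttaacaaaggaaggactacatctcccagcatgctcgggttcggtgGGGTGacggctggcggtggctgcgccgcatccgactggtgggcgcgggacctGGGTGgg
Kif1a: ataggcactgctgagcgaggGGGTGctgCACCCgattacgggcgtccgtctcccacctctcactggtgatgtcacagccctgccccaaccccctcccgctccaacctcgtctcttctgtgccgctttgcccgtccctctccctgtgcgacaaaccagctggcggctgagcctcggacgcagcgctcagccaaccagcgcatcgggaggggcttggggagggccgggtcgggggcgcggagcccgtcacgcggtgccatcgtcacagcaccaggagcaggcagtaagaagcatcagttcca
Kif5c: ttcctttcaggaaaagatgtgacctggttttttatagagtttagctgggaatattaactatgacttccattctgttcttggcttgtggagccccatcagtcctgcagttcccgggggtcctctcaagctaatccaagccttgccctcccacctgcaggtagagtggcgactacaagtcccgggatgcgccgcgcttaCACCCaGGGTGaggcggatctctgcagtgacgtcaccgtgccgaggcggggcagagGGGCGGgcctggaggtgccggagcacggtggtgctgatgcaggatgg

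Positions count from the transcription start, with its base as 1 and no 0. CACCC, read as GGGTG on the other strand, occurred 2 times in each of these windows. In Kif3c the matches began at -9 and 44 from the start, in Kif1a at -230 and -222, and in Kif5c at -53 and -47. GGGCGG was found in Kif5c only, 1 time, at 4. No 2 matches overlapped in these windows. A second Kif1a window, at another annotated start, held neither motif. Of all 32851 windows, 57.5% held CACCC and 35.7% held GGGCGG. Of the 35 Kif windows, which came from 31 genes, 4 of them with more than 1 window, 68.6% and 65.7% did. These shares were not matched for GC content, which ran from 33.3% (Kif27) to 86.7% (Kif13a) in the Kif windows. Whether they differed from those of all windows was not tested. A match describes the letters and not a site in use.

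Ciliary kinesins went in both directions, and none had groups that did not overlap. Kif3a, the common subunit of kinesin-2, was at 9.75, 9.32 and 8.50 on mutant arrays 1, 2 and 3, against 9.93, 10.03 and 8.95 on wild-type arrays 1, 2 and 3. Each mutant array lay below its same-numbered wild-type array, by -0.18, -0.71 and -0.45, although the groups overlapped. The difference was -0.45 (SE 0.406), with an unadjusted p of 0.295 by limma. All 4 of its probe sets had a negative difference, from -0.98 to -0.11, and probe set 1449841_at had no overlap between groups, with a difference of -0.34 (SE 0.27).

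Kif3b, the partner of Kif3a in ciliary transport, was at 7.90, 6.96 and 7.88 on mutant arrays, against 7.63, 7.30 and 8.42 on wild-type arrays. Its difference was -0.21 (SE 0.494), and its sign changed without mutant array 2 (0.10) or wild-type array 3 (0.12). Kif17 was too dim to test. Its brightest probe set was at the lower limit on mutant arrays 1 and 2 and at 5.80 on mutant array 3, against 4.35 on wild-type array 1, the lower limit on wild-type array 2 and 5.76 on wild-type array 3. The differences of its 3 probe sets were -0.22 (SE 0.825), 0.16 (SE 0.71) and 0.56 (SE 0.593), and the last, 1422762_at, was at 5.83 on mutant array 2.

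Kif6, a kinesin of motile cilia, was higher in the mutant in all 3 pairs, beside 6.31% of all genes. It was at 5.84, 6.20 and 7.64 on mutant arrays 1, 2 and 3, against 3.70, 5.32 and 7.03 on wild-type arrays 1, 2 and 3. The groups overlapped, since the arrays numbered 3 were the highest of each genotype. The difference was 1.21 (SE 0.905), with an unadjusted p of 0.208 by limma, or 0.043 with the replicate number as a block (adjusted p = 1), beside 1.24% of all genes at an unadjusted p under 0.05 in that fit. The other Kif6 probe set, 1442238_a_at, went the other way, at -0.40 (SE 0.564); it was the brighter one without both arrays numbered 3, which gave -0.35.

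Kif7, which acts at the tip of the cilium in Hedgehog signalling, was at 5.42, 5.67 and 6.42 on mutant arrays, against 5.43, 5.35 and 4.93 on wild-type arrays. Its difference was 0.60 (SE 0.70), with overlapping groups. Kif27, related to motile cilia, Kif24, which restrains cilium formation at the centriole, and Kif9, of motile cilia and sperm tails, differed by 0.51 (SE 0.801), -0.14 (SE 0.411) and -0.12 (SE 0.564). Over the 7 ciliary kinesins tested the median difference was -0.12, with 4 lower. Leaving out 1 array moved that median from -0.25 to 0.23. Markers of multiciliated respiratory cells, which also carry ciliary kinesins, had a median difference of 0.17, with 4 of 10 lower. Their summed intensity ran from 3214 to 4518 on mutant arrays and from 2780 to 3606 on wild-type arrays, and none was at the lower limit on all arrays. The part of these cells in the ciliary kinesin levels was not tested.

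**Figure D4:**
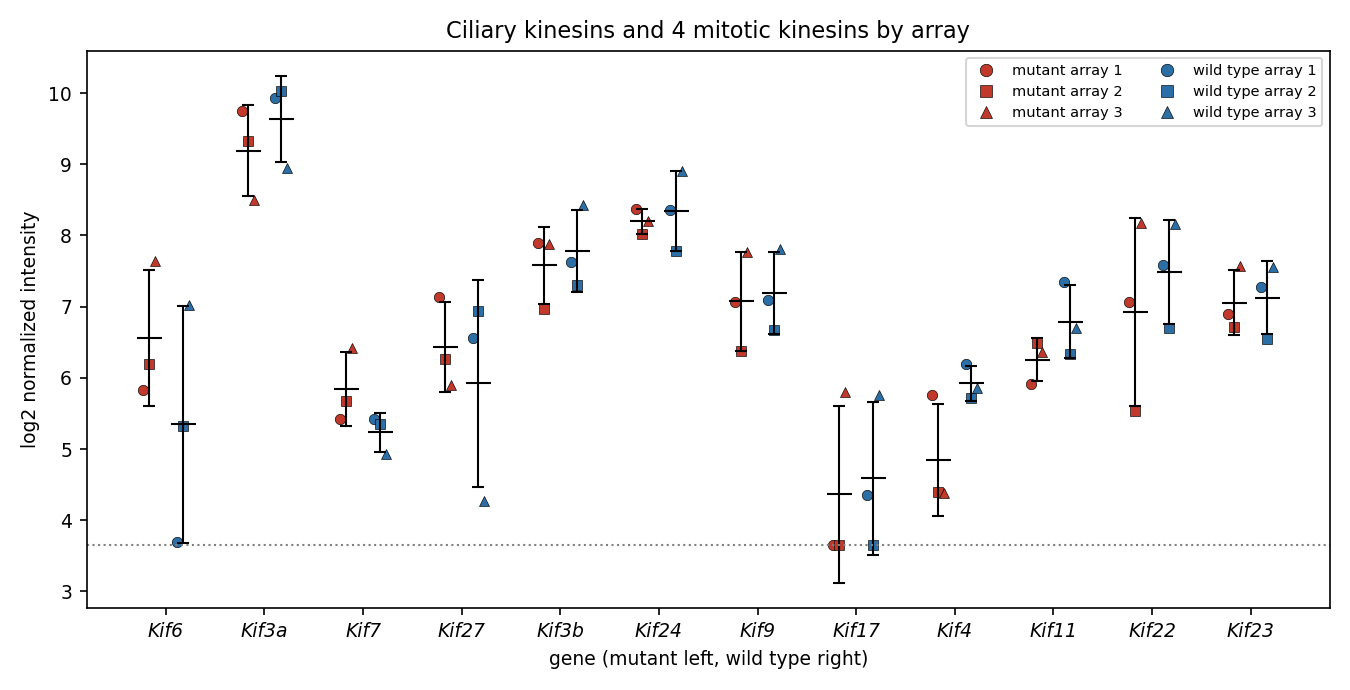
Log2 normalized intensity of the 8 ciliary kinesins and of the mitotic Kif4, Kif11, Kif22 and Kif23 on each array, mutant left and wild type right, with mean and SD as bars. The dotted line is the lower limit set in processing, at which Kif17 lay on 3 arrays. All groups overlap.

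Of the 8 mitotic kinesins tested 6 had lower means in the mutant, with a median difference of -0.53, but no member had groups that did not overlap and none had an unadjusted p under 0.05. On the array there were 12, and with the 4 dim ones included the median was -0.11. Leaving out 1 array moved the median over those tested between -0.68 and -0.28. The pairs numbered 1, 2 and 3 had medians of -0.53, 0.09 and -0.26, so the pair numbered 2 did not share the direction.

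Kif4, a chromosome-bound kinesin that shapes the spindle midzone, was at 5.75, 4.39 and 4.38 on mutant arrays 1, 2 and 3, against 6.20, 5.71 and 5.85 on wild-type arrays 1, 2 and 3. Mutant array 1 lay just above wild-type array 2, so the groups overlapped, yet each mutant array was below its same-numbered partner. The difference was -1.08 (SE 0.75, unadjusted p = 0.178 by limma). Kif20b, which acts in cell division at the midbody, was also lower in all 3 pairs, with a difference of -0.52 (SE 0.743).

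Kif11, which pushes the spindle poles apart, was at 5.92, 6.49 and 6.36 on mutant arrays, against 7.34, 6.33 and 6.70 on wild-type arrays, a difference of -0.53 (SE 0.577). Wild-type array 1 was the highest. Kif22, a motor on chromosome arms, was at 7.06, 5.54 and 8.17 on mutant arrays, against 7.59, 6.71 and 8.17 on wild-type arrays. Its difference of -0.56 (SE 0.70) became 0.13 without mutant array 2. Another Kif22 probe set, 1451128_s_at, had no overlap between groups and a difference of -0.89 (SE 0.51).

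Kif23, of the central spindle, was at 6.90, 6.71 and 7.57 on mutant arrays, against 7.28, 6.55 and 7.55 on wild-type arrays, a difference of -0.07 (SE 0.53). Kif2c, which takes microtubules apart at centromeres, was at 4.74, 6.52 and 5.28 on mutant arrays, against 4.52, 5.92 and 5.97 on wild-type arrays, a difference of 0.04 (SE 0.801). Kif20a, needed for cytokinesis, was at 5.99, 6.87 and 3.65 on mutant arrays, against 6.52, 5.999 and 3.65 on wild-type arrays, a difference of 0.11 (SE 1.04). For all 3 genes the groups overlapped, and Kif20a was at the lower limit set in processing on both arrays numbered 3. Kif15, a spindle motor, differed by -0.68 (SE 0.875).

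Of 13 dividing cell markers other than kinesins, 11 had lower means in the mutant, with a median difference of -0.24 and no group without overlap. Their summed intensity ran from 8671 to 10574 on mutant arrays and from 9770 to 11572 on wild-type arrays, and none was at the lower limit on all arrays. The pairs numbered 1, 2 and 3 had marker medians of -0.46, 0.01 and -0.27. The part of dividing cells in the mitotic kinesin levels was not tested.

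For the 7 kinesins tested outside these classes, differences ran from -0.21 to 0.91, all with overlapping groups. Kif2a, which takes microtubules apart and trims axon branches, Kif16b, an endosome motor, and Kif13a and Kif1c, vesicle motors, differed by -0.10 (SE 0.283), -0.12 (SE 0.305), -0.16 (SE 0.346) and 0.20 (SE 0.344). Kif26a, known in mice for a role in enteric neurons, was at 9.53, 8.87 and 8.90 on mutant arrays, against 8.81, 9.28 and 6.49 on wild-type arrays. Its difference was 0.91 (SE 0.627), and the pairs numbered 1, 2 and 3 differed by 0.72, -0.41 and 2.41, the last with the low wild-type array 3. Kif26b differed by -0.21 (SE 0.615). Kif28 was at the lower limit on all mutant arrays and on wild-type arrays 1 and 2.

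**Figure D5:**
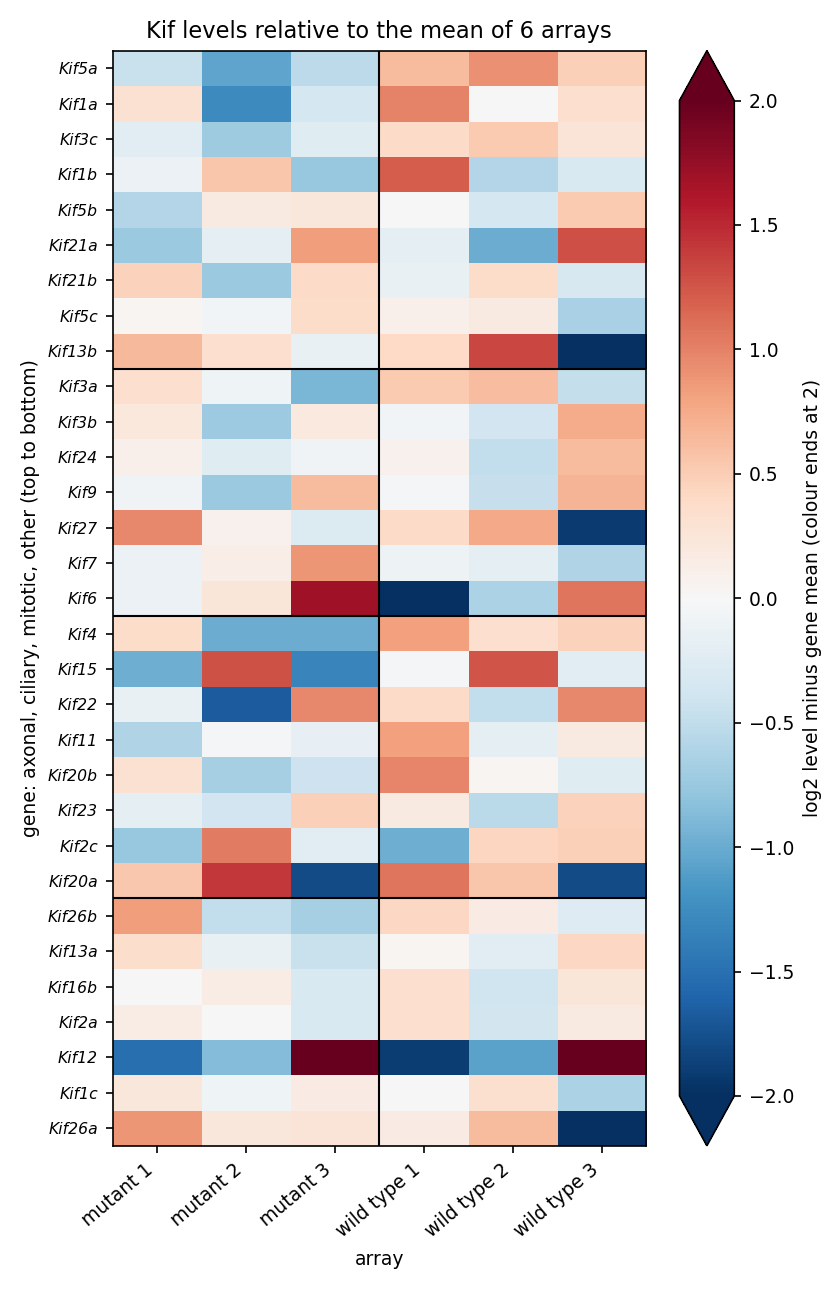
Log2 level of the 31 Kif genes tested on each array, minus the mean of that gene over the 6 arrays, with mutant arrays left and wild-type arrays right and classes separated by lines (colour ends at 2 in each direction). Kif5a and Kif3c divide by genotype, whereas Kif12, Kif6, Kif20a and Kif21a divide the arrays numbered 3 from the others.

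Across the whole family 21 of 31 genes were lower in the mutant by their means, or 67.7%, beside 52.6% of all genes, with a median difference of -0.12, beside -0.02. Kif5a, Kif3c, Kif1a, Kif3a, Kif9, Kif4 and Kif20b, or 7 of 31, were lower in all 3 pairs of arrays with the same number. That is 22.6%, beside 9.46% of all genes. Of 15 genes with more than 1 probe set above the dim limit, 8 had all of them on the same side of 0 and 7 did not.

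Kinesins work with light chains and adaptors that select their cargo. Of 17 kinesin light chains, accessory subunits, cargo adaptors and other kinesins tested, 11 were lower, 0 passed the threshold by limma, and the median difference was -0.14. In this list 7 of 17 were lower in all 3 pairs, beside 9.46% of all genes. Klc1, the light chain that joins Kif5 heavy chains to cargo, had the smallest p. It was at 9.35, 8.50 and 9.57 on mutant arrays, against 9.54, 10.22 and 9.64 on wild-type arrays, with overlap and a difference of -0.66 (SE 0.354). Among adaptors that tie cargo to conventional kinesin, Mapk8ip2 differed by -0.59 (SE 0.328) and Mapk8ip1 by -0.64 (SE 0.528). Kifap3, the accessory subunit of kinesin-2, was at 11.33, 11.28 and 11.17 on mutant arrays, against 11.56, 11.36 and 11.45 on wild-type arrays. Kifap3 and Mapk8ip1 had no overlap between groups, or 2 of 17, beside 2.86% of all genes; the Kifap3 difference was -0.20 (SE 0.172).

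Cytoplasmic dynein and its cofactor dynactin, which carry cargo the other way, towards the cell body, were listed for comparison. Of 21 genes tested 12 were lower, 0 had groups without overlap and 0 were lower in all 3 pairs, beside 9.46% of all genes. Their differences ran from -0.29 to 0.36, with a median of -0.05. The smallest p belonged to Dynll1 (-0.16, SE 0.182), a dynein light chain, Dync1h1 (0.34, SE 0.405), the dynein heavy chain, Dynlt3 (-0.16, SE 0.199), another light chain, and Ndel1 (0.36, SE 0.472), a dynein regulator. Whether the kinesin and dynein lists differed from each other was not tested.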

How the data were processed

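For each of 45037 probe sets and 6 arrays the authors deposited 1 intensity; the steps that made these intensities from scanned probes are not given in the sources used here. Array medians differed by 0.69 on the log2 scale, so the intensities were quantile normalized, set to at least 12.56 (the 20th percentile, called the lower limit here) and log2 transformed, which understates differences of dim genes. Symbols came from the platform annotation, and all 37 Kif genes were found by Entrez number in RefSeq. The dim limit was the 40th percentile of the means of all probe sets with 1 gene symbol. Genes whose brightest probe set lay below it, 5490 of 18193, were not tested, leaving 12703. The genotypes were compared by limma 3.58.1 (R 4.3.3; lmFit, and eBayes with a trend on intensity, two-sided). Benjamini-Hochberg adjustment ran across the 12703 genes, at a threshold of 0.05. Values of a second or later probe set come from the same model on all probe sets. The procedure was tested on simulated data with independent noise of the same SD for every gene. Those data lacked the deviations that same-numbered arrays share here. The number of arrays limits the precision, and the labels call the samples biological replicates.

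Same-numbered arrays deviated together from their group means, with correlations across genes of 0.47, 0.18 and 0.56 for numbers 1, 2 and 3. Between genotypes, arrays of different numbers ran from -0.47 to 0.22. The highest, mutant array 1 with wild-type array 2, exceeded the 0.18 of number 2, so the pairing is least marked for that number. The main limma fit and the permutation test took no account of the numbers. Same-numbered arrays were treated as pairs only in the differences by pair and in the fit with the number as a block. The labels do not say what a number shares. Alternatives changed normalization, lower limit, dim filter, variance model, array weights, probe set choice, pairing and the arrays used. Members, classes and marker lists were chosen with earlier results of these data known, Kif5a among them. Values by array are given for a fixed set of Kif genes, those without overlap, the 3 of smallest p in the axonal, ciliary and mitotic classes and, as differences or levels, the 4 of smallest p in each partner list.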

Additional observations from a re-analysis of the deposited data

How the results depend on the processing

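The count of Kif genes and of all genes past the threshold stayed at 0 by limma in all 17 alternatives that changed the processing or the arrays, and at 0 Kif genes with an adjusted p under 0.1. The number of Kif genes at an unadjusted p under 0.05 was 2, and 0 with the mean of all probe sets, 1 with arrays scaled to 1 median, with the deposited values or without mutant array 1, 2 or 3 or wild-type array 1, and 3 with array weights, with the block or without wild-type array 3. The third gene in those last settings was Kif6, a ciliary kinesin with a positive difference there. Without wild-type array 2 the 2 genes were Kif5a and Kif26a, which is outside the 3 classes, and Kif3c was not among them. The fit that took the replicate number as a block gave the same counts past the threshold, 0 and 0. In it Kif5a had an unadjusted p of 0.00153 and Kif3c of 0.0499 by limma, and the block changed no call. Over all genes, the number at an unadjusted p under 0.05 was 76, and 157 with the block, 43 with arrays scaled to 1 median, 50 with the deposited values as they stand, 191 with no filter, 131 with array weights, and 120 without both arrays numbered 3. Leaving out wild-type array 2 gave 212, and wild-type array 3 gave 132. Kif genes without overlap numbered 2, and 8 without wild-type array 2, 7 without mutant array 1 and 1 with arrays scaled to 1 median or with the mean of all probe sets; with fewer arrays fewer values must separate. The Kif5a difference was negative in all 17 alternatives, from -1.52 to -0.46, and those of Kif3c, Kif1a, Kif3a, Kif4 and Kif11 were negative wherever the gene was tested. When each array in turn was left out, the axonal median ran from -0.57 to -0.14.

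Among the 17 Kif genes followed here the lowest adjusted p was 0.99955 by limma under these alternatives; for differences that changed sign, the cause was not tested. With 1 array left out, they ran from -0.57 to 0.33 for Kif1b, -0.75 to 1.05 for Kif20a, -0.60 to 0.55 for Kif21a, -1.21 to 0.13 for Kif22, -0.36 to 0.15 for Kif23, -0.45 to 0.43 for Kif2c, -0.44 to 0.12 for Kif3b, -0.32 to 0.14 for Kif5b and -0.021 to 0.40 for Kif5c. Array weights gave -0.36 for Kif20a, 0.033 for Kif21a and 0.085 for Kif3b. The deposited values gave 0.016 for Kif21a and 0.029 for Kif23, and the mean of all probe sets 0.0024 for Kif21a. Without both arrays numbered 3, Kif21a was at 0.11, Kif5c at -0.14 and Kif6 at -0.35, where another Kif6 probe set was the brighter one. Low signal limits the mitotic class most, with 4 of 12 members too dim to test.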

Other observations

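Several Kif genes varied more between the arrays numbered 3 and the others than between genotypes. Kif12, a gene that modifies cystic kidney disease in mice, was at 8.13 on mutant array 3 and 8.78 on wild-type array 3. On the other arrays it was at 4.28 and 4.92 in mutant and at 3.89 and 4.72 in wild type. The arrays numbered 3 thus averaged 4.0 higher on the log2 scale, while the genotypes differed by -0.02 (SE 1.32). Kif14, Kif6, Kif17, Kif21a and Kif22 were higher on the arrays numbered 3 by 2.20, 2.07, 1.96, 1.58 and 1.45 on average. Kif20a, Kif13b, Kif27, Kif26a, Kif15 and Kif3a were on average lower there, with values of -2.69, -2.03, -1.64, -1.43, -1.15 and -1.04. For Kif26a only wild-type array 3 was low, at 6.49, while mutant array 3 at 8.90 lay above mutant array 2 at 8.87. For Kif15, wild-type array 3 at 5.33 lay above mutant array 1 at 4.57. The genes on either side came from more than 1 class. These genes were chosen after their values were seen, the labels do not say what the number 3 stands for, and its part in these levels was not tested.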
